A study of Mus musculus with 9 samples.

Results

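The nuclear genome encodes most subunits of the mitochondrial respiratory chain, and their mRNA was followed here in mouse lymph nodes. The genes were taken by symbol: all entries of the expression table that begin with Ndufa, Ndufb, Ndufc, Ndufs, Ndufv, Sdha to Sdhd, Uqcr, Cox4 to Cox8 or Atp5, without those marked as pseudogenes by the ending -ps. This gave 91 of 37819 entries, of which 36 belonged to complex I, 4 to complex II, 8 to complex III, 19 to complex IV and 16 to complex V. The remaining 8 were assembly factors or other proteins named after a complex. Cox4i1, the common isoform of subunit IV of cytochrome c oxidase, was not analysed here.

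Complex I (NADH dehydrogenase) and complex II (succinate dehydrogenase) pass electrons to ubiquinone, complex III passes them on to cytochrome c, and complex IV (cytochrome c oxidase) hands them to oxygen. Complexes I, III and IV pump protons across the inner mitochondrial membrane, and complex V (ATP synthase) uses the resulting gradient to make ATP. Lymphocytes raise the expression of these genes when they are activated and divide, and brown fat, heart and red muscle are known for the highest levels.

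RNA was sequenced from 3 groups with 3 libraries each. The MHCII-KO group carried activated NRAS with an MHC class II knockout and is labelled Cre-positive. The Tyr-NrasQ61K group carried activated NRAS, driven by the melanocyte promoter of tyrosinase, with MHC class II intact, and is labelled Cre-negative. The WT group had neither change. The series description instead gives a Cre-inducible activated NRAS with an MHC class II cross. It differs from the groups as labelled, and the difference was not resolved here. The strain is given as FVB/NJ for WT and as FVB/NJ (Cross) for both NRAS groups, so by the labels strain and NRAS cannot be told apart. The study's methods describe the wild-type controls as albino littermates without the NRAS transgene. Whether this holds for the WT libraries here was not resolved. The labels do not give the age of the mice, the cells in which the Cre acted or the MHC class II gene removed, nor do they say that each library came from its own mouse, so the p-values cover just the variation among these libraries, which may be technical. By the labels the source was nevus melanocytes, whereas the study's methods give lymph nodes. Cd74, a chaperone of MHC class II in B cells and other presenting cells, was at 1113 to 1772 FPKM in the 9 libraries. The melanocyte enzyme gene Dct was at 0.847 to 3.25 FPKM in the MHCII-KO, 2.77 to 5.81 in the Tyr-NrasQ61K and 0 to 0.0509 in the WT libraries. H2-Ab1, which encodes an MHC class II chain, was at 271, 108 and 165 FPKM in the MHCII-KO, 149, 276 and 207 in the Tyr-NrasQ61K and 183, 101 and 170 in the WT libraries. The groups overlapped. H2-Aa was at 634, 362 and 499 FPKM in the MHCII-KO, 587, 276 and 802 in the Tyr-NrasQ61K and 1091, 667 and 932 in the WT libraries. Its MHCII-KO libraries lay below WT but overlapped with Tyr-NrasQ61K. H2-Eb1 overlapped between the groups, at 360 to 444, 355 to 578 and 394 to 659 FPKM in MHCII-KO, Tyr-NrasQ61K and WT. Both NRAS groups thus overlapped for each gene, so these values do not check the MHCII-KO label, by which the libraries are named here.

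FPKM gives fragments relative to transcript length and to all mapped fragments of a library, so the reads behind a value are not known. Relative to WT replicate 1, the depth estimated from low values was 0.755 in Tyr-NrasQ61K replicate 2 and 0.871 in MHCII-KO replicate 2, against 1.33 to 1.68 in the other 6 libraries. WT replicate 1, set to 1, was the next lowest. The estimates rest on few genes, such as 29 of 544 in Tyr-NrasQ61K replicate 2 and 37 of 628 in MHCII-KO replicate 2. In Tyr-NrasQ61K replicate 3 it was 12 of 622. Replicate 2 of Tyr-NrasQ61K and of MHCII-KO, the 2 shallow libraries, also stood apart from the rest on the first principal component of all genes, at 101.9 and 78.6. WT replicates 1 and 3 lay apart at its other end, at -74.1 and -73.4, while WT replicate 2 was at -20.4. Tyr-NrasQ61K replicate 3 stood apart on the second component. Results that rest on the 2 shallow libraries or on Tyr-NrasQ61K replicate 3 are given library by library.

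Most nuclear respiratory chain genes had lower values in both NRAS groups than in WT nodes, but no single member passed the test. Summed over the 91 members, FPKM came to 2179, 1606 and 2022 in the MHCII-KO libraries, 2132, 1573 and 2967 in the Tyr-NrasQ61K libraries, and 3591, 2326 and 3864 in the WT libraries. WT replicate 2, the lowest of its group, thus lay between the Tyr-NrasQ61K values. As a share of the FPKM of all protein-coding genes outside the mitochondrial genome, which takes out much of the difference in total between libraries, the groups separated. The members held 1.29%, 1.13% and 1.21% in the MHCII-KO, 1.30%, 1.15% and 1.37% in the Tyr-NrasQ61K and 1.57%, 1.45% and 1.62% in the WT libraries.

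**Figure D1:**
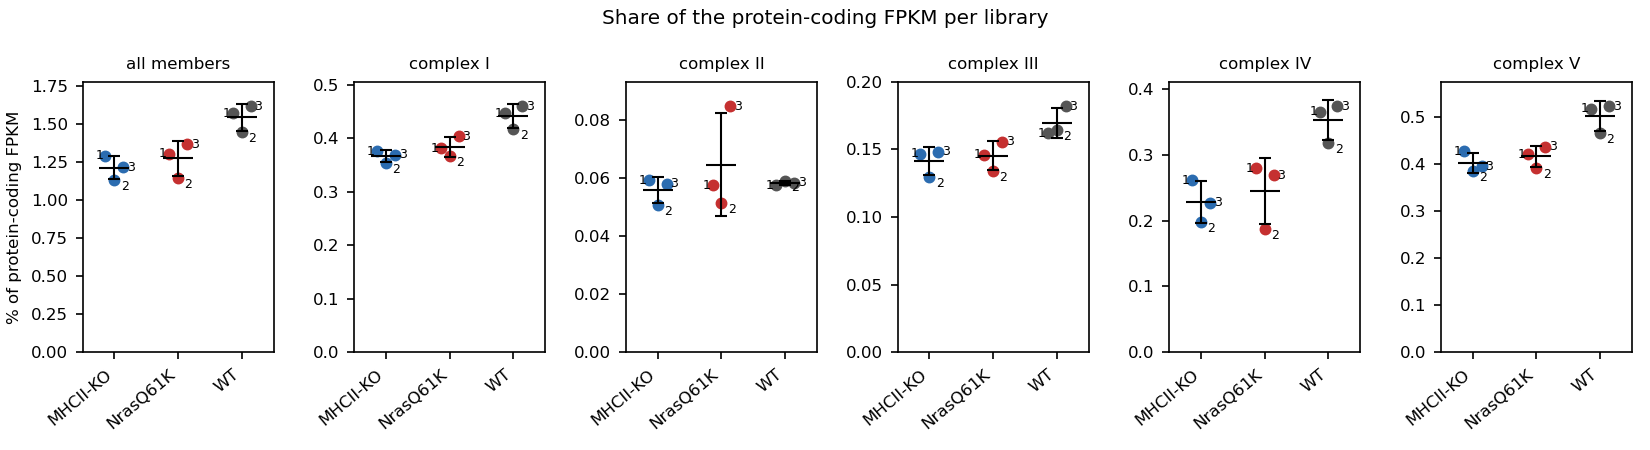
Share of the protein-coding FPKM held by all 91 members and by the members of each complex, in percent, in MHCII-KO (blue), Tyr-NrasQ61K (red) and WT (grey) libraries; points are libraries with their replicate number, and bars show the group mean ± SD (n = 3). All 6 libraries of the NRAS groups lie below all 3 WT libraries for all members and for complexes I, III, IV and V, whereas complex II overlaps and Tyr-NrasQ61K replicate 3 is highest there at 0.0846%.

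The separation was widest for complex IV. Its genes held 0.198% to 0.261% of the protein-coding FPKM in the MHCII-KO libraries and 0.187% to 0.280% in the Tyr-NrasQ61K libraries, against 0.319% to 0.374% in WT. For complex V the ranges were 0.385% to 0.427%, 0.392% to 0.437% and 0.465% to 0.522% in MHCII-KO, Tyr-NrasQ61K and WT libraries. Complex II did not separate, with 0.0507% to 0.0590%, 0.0513% to 0.0846% and 0.0574% to 0.0589% in the same groups.

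The test was run by limma on log2(FPKM + 1) for the 16587 genes that reached an FPKM of 1 in 3 or more libraries, and 85 members were among them. The 6 members left untested were tissue-restricted isoforms of complex IV. With p-values adjusted over all genes (Benjamini-Hochberg, threshold 0.05), limma called 0 of 85 members higher or lower in each of the 4 comparisons. In MHCII-KO against WT, 0.0784% of all genes tested were called higher and 0.0663% lower. In Tyr-NrasQ61K against WT these were 0.163% and 0.0723%, in MHCII-KO against Tyr-NrasQ61K 0.0121% and 0.0362%, and in both NRAS groups pooled against WT 0.205% and 0.193%. The smallest adjusted p of any member from limma was 0.319 in MHCII-KO against WT, 0.190 in Tyr-NrasQ61K against WT and 0.135 in both NRAS groups against WT. Weighting libraries by their spread called 70 members in MHCII-KO (2 of them higher), 60 in Tyr-NrasQ61K (all lower) and 72 in both groups against WT (1 of them higher). With these weights 7407, 5076 and 7542 of all 16587 genes were called in the same comparisons.

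At an unadjusted p of at most 0.05, 30 of 85 members were lower in MHCII-KO than in WT nodes and 0 were higher, where 11.5% of all genes were lower and 3.57% higher. In Tyr-NrasQ61K against WT, 20 were lower and 0 higher, where 8.43% and 6.79% of all genes were. The fold change was below 0 for 81 of 85 members in MHCII-KO and 77 of 85 in Tyr-NrasQ61K nodes against WT, where 67.5% and 59.1% of all genes were below 0. The 3 libraries of a group were all below the 3 WT libraries for 45 members in MHCII-KO (23.4% of all genes) and for 22 in Tyr-NrasQ61K (10.5% of all genes). Of the members tested, Atp5d alone had all 3 libraries above WT in either group (7.97% and 8.18% of all genes).

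The counts at an unadjusted p depended on single libraries. In MHCII-KO against WT the count of 30 became 51 without WT replicate 2, 5 and 4 without WT replicates 1 and 3, 3 without MHCII-KO replicate 2 and 18 without MHCII-KO replicate 3. In Tyr-NrasQ61K against WT the count of 20 became 37 without WT replicate 2, 4 without WT replicate 1, WT replicate 3 or Tyr-NrasQ61K replicate 2, 43 without Tyr-NrasQ61K replicate 3 and 10 without MHCII-KO replicate 3, which enters through the shared spread.

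The median log2 fold change of the 85 members was -0.64 in MHCII-KO and -0.54 in Tyr-NrasQ61K against WT, beside -0.22 and -0.12 for all genes tested. Scaling of the libraries moved the median of all genes. With median-ratio scaling it was 0.02 and 0.03, and the members' medians became -0.37 and -0.36. The difference between both medians was -0.42 to -0.37 in MHCII-KO and -0.42 to -0.38 in Tyr-NrasQ61K, as deposited and under the 3 scalings tried. Among protein-coding genes corrected for GC content and transcript length it was smaller, at -0.19 in MHCII-KO and -0.15 in Tyr-NrasQ61K. Between the NRAS groups the members' median was -0.11 for MHCII-KO against Tyr-NrasQ61K, beside -0.08 for all genes, and it changed sign without Tyr-NrasQ61K replicate 3 (0.10), without MHCII-KO replicate 2 (0.05) and with quantile normalization (0.05). Of the 85 members, 60 were below 0 and 25 above it in this comparison, where 68% and 32% of all genes were. In 2 members, Ndufa5 and Atp5g1, the MHCII-KO libraries all lay below Tyr-NrasQ61K (3.07% of all genes), and in 1, Ndufa2, all above (0.729% of all genes). Both comparisons with WT share the WT libraries.

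In both NRAS groups together against WT, 38 members were lower and 0 higher at an unadjusted p of at most 0.05, where 15.2% and 6.52% of all genes were. The count of 38 became 9 without WT replicate 1, 8 without WT replicate 3, 21 without MHCII-KO replicate 2 and 54 without WT replicate 2 or without Tyr-NrasQ61K replicate 3. All 6 libraries lay below the 3 WT libraries for 21 members (8.44% of all genes) and above them for 1, Atp5d (4.52% of all genes). The fold change was below 0 for 80 members and above 0 for 5, where 63.5% and 36.5% of all genes were, and the members' median was -0.59 beside -0.16 for all genes.

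**Figure D2:**
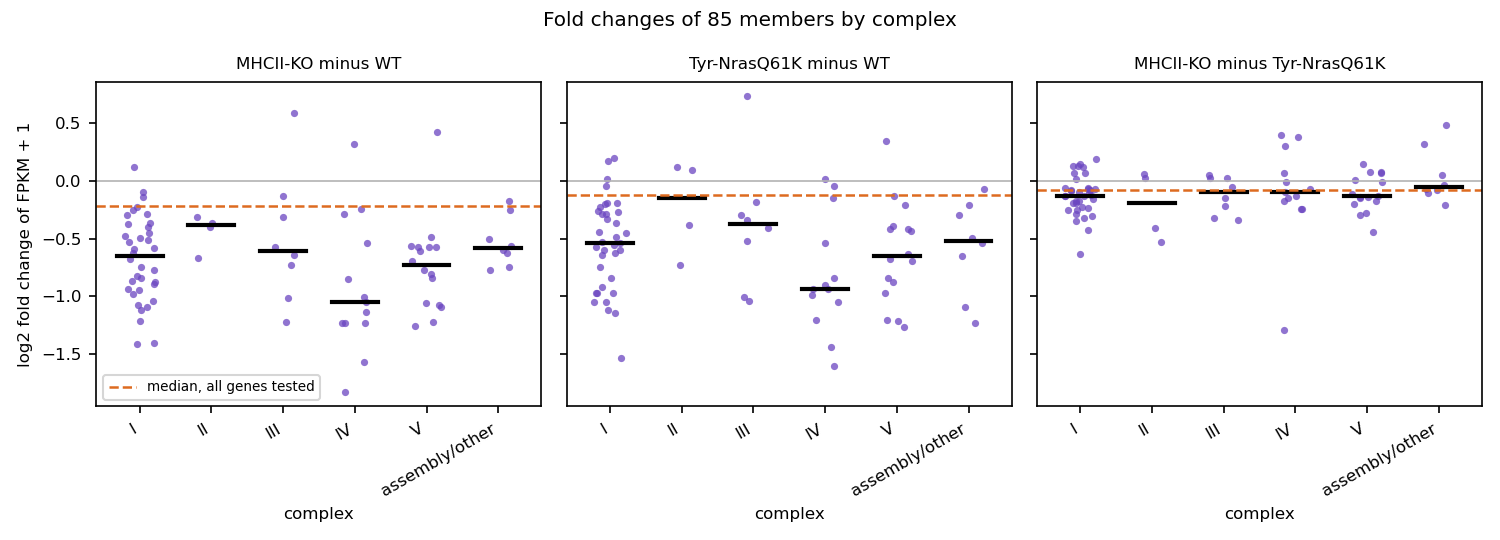
Log2 fold change of FPKM + 1 of the 85 members tested, by complex, in MHCII-KO against WT (left), Tyr-NrasQ61K against WT (middle) and MHCII-KO against Tyr-NrasQ61K (right); points are genes, black bars the median of a complex, and the dashed line the median of all 16587 genes. Complex IV has the lowest median against WT, at -1.05 and -0.93, and complex II the highest, at -0.39 and -0.15 (0.05 in Tyr-NrasQ61K with median-ratio scaling), while all complexes lie near the line in the right panel.

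Library by library, the median distance of the members from their WT mean on the log2 scale was -0.50, -0.94 and -0.56 in the MHCII-KO, -0.54, -1.04 and -0.13 in the Tyr-NrasQ61K and 0.16, -0.43 and 0.26 in the WT libraries. Tyr-NrasQ61K replicate 2 was the lowest of the 9 libraries for 43 of 85 members and MHCII-KO replicate 2 for 22. Of the protein-coding genes tested, 36.5% and 21.5% were lowest in these libraries. At the other end WT replicate 3 was highest for 51 members and WT replicate 1 for 19. Without the 2 shallow libraries the members' median was -0.51 in MHCII-KO and -0.33 in Tyr-NrasQ61K against WT, beside -0.15 and -0.01 for all genes.

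**Figure D3:**
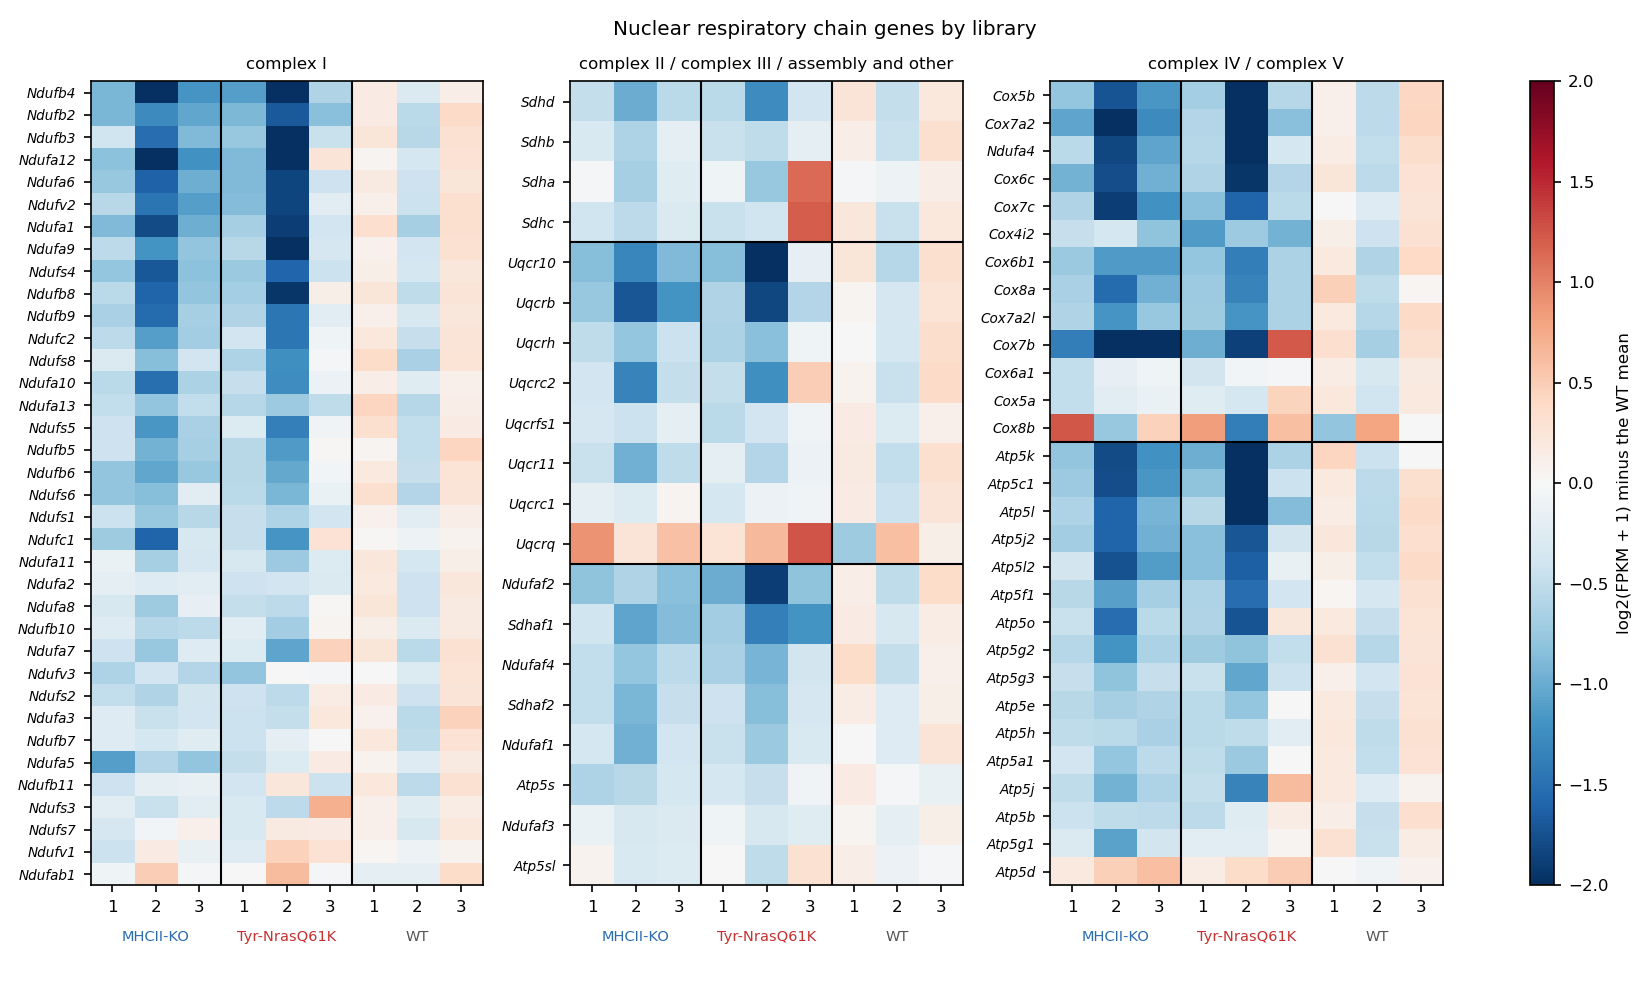
Difference of log2(FPKM + 1) from the WT mean for the 85 members (rows, by complex and ordered by fold change in Tyr-NrasQ61K against WT) in the MHCII-KO, Tyr-NrasQ61K and WT libraries (columns, by replicate); blue is lower and red higher, with colors saturating at -2 and 2. Replicate 2 of either NRAS group is the darkest column, with medians of -0.94 and -1.04, Sdha, Sdhc and Cox7b are red in Tyr-NrasQ61K replicate 3, and Atp5d is red in all 6 libraries of the NRAS groups.

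Within complex I, the 29 accessory subunits had a lower median than the 7 core subunits, which carry the redox centers and the quinone site. The medians were -0.77 and -0.55 for accessory subunits in MHCII-KO and Tyr-NrasQ61K against WT, and -0.49 and -0.26 for core subunits. The core transcripts are longer, with a median of 1623 bases against 763. The part of length in this difference between roles was not tested. The most abundant members were Ndufa3, Ndufa2 and Ndufa6, all accessory. Ndufa3 was at 55.6, 48.6 and 50.99 FPKM in the MHCII-KO, 49.2, 47.7 and 77.9 in the Tyr-NrasQ61K and 70.9, 45.7 and 92.03 in the WT libraries, with overlap between the groups. Ndufa2 varied little, at 38.7, 36.7 and 37.6 FPKM in the MHCII-KO, 33.00, 33.5 and 35.8 in the Tyr-NrasQ61K and 50.5, 32.9 and 51.8 in the WT libraries, with WT replicate 2 the lowest of all.

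Ndufa6, a subunit of the LYR protein family, separated from WT. It was at 33.3, 17.8 and 28.4 FPKM in the MHCII-KO, 30.4, 15.2 and 42.2 in the Tyr-NrasQ61K and 64.2, 42.3 and 67.6 in the WT libraries, and all 6 libraries of the NRAS groups lay below WT. The log2 fold change was -1.12 (SE 0.412 and adjusted p = 0.329, limma) in MHCII-KO and -1.05 (SE 0.412 and adjusted p = 0.317, limma) in Tyr-NrasQ61K. Ndufb2 and Ndufb4, accessory subunits of the membrane arm, had the smallest p of complex I in Tyr-NrasQ61K against WT. Ndufb2 (ENSMUSG00000002416, chromosome 6 from 39592574 to 39603382 of mm10) was at 12.04, 9.204 and 11.1 FPKM in the MHCII-KO, 12.2, 6.68 and 12.8 in the Tyr-NrasQ61K and 26.7, 15.9 and 31.1 in the WT libraries. Its highest library in the NRAS groups stayed below its lowest WT library, with log2 fold changes of -1.08 (SE 0.320 and adjusted p = 0.319, limma) in MHCII-KO and -1.14 (SE 0.320 and adjusted p = 0.231, limma) in Tyr-NrasQ61K. Once corrected for GC content and length among protein-coding genes, Ndufb2 was called lower in Tyr-NrasQ61K and in both groups together. In these comparisons 250 and 501 of all 11902 genes so corrected were called.

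Ndufb4 was at 7.91, 2.83 and 6.47 FPKM in the MHCII-KO, 6.84, 1.27 and 10.1 in the Tyr-NrasQ61K and 17.9, 12.7 and 17.5 in the WT libraries, and replicate 2 was the lowest of each NRAS group. Its log2 fold change was -1.41 in MHCII-KO and -1.53 in Tyr-NrasQ61K (adjusted p = 0.329 and 0.316 from limma). Ndufs1, the largest iron-sulfur subunit of the core, had a smaller difference and a closer spread. It was at 12.3, 9.56 and 11.1 FPKM in the MHCII-KO, 11.9, 10.6 and 12.6 in the Tyr-NrasQ61K and 17.9, 14.3 and 18.4 in the WT libraries, without overlap, and the log2 fold change was -0.58 (SE 0.190 and adjusted p = 0.329, limma) in MHCII-KO and -0.49 (SE 0.190 and adjusted p = 0.316, limma) in Tyr-NrasQ61K. Ndufv1, the core subunit that binds NADH, did not follow this pattern, at 17.1, 26.1 and 20.8 FPKM in the MHCII-KO, 19.4, 32.5 and 28.8 in the Tyr-NrasQ61K and 23.9, 21.6 and 24.6 in the WT libraries. Tyr-NrasQ61K replicate 2, the lowest library for 43 members, was here the highest. Ndufab1, the mitochondrial acyl carrier protein, which also serves fatty acid synthesis, was likewise highest there, at 14.5, 22.2 and 15.2 FPKM in the MHCII-KO, 15.5, 24.6 and 15.2 in the Tyr-NrasQ61K and 13.7, 13.4 and 20.5 in the WT libraries.

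Ndufa5, an accessory subunit of the matrix arm, was the 1 member with an unadjusted p of at most 0.05 between the NRAS groups (1.28% of all genes were lower at that level). It was at 9.19, 13.6 and 11.7 FPKM in the MHCII-KO, 14.8, 17.1 and 23.5 in the Tyr-NrasQ61K and 21.99, 17.3 and 23.8 in the WT libraries. The MHCII-KO libraries lay below all others, while Tyr-NrasQ61K and WT overlapped. The log2 fold change was -0.63 in MHCII-KO against Tyr-NrasQ61K (unadjusted p = 0.0338 and adjusted p = 0.9999 from limma) and -0.82 in MHCII-KO against WT (adjusted p = 0.325 from limma).

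Complex II is also an enzyme of the tricarboxylic acid cycle and has no subunit encoded in mitochondria. Its 4 genes had the least negative median of the 5 complexes against WT, and Sdha and Sdhc also stood out in 1 library. Sdha, the flavoprotein subunit, was at 40.7, 25.8 and 34.97 FPKM in the MHCII-KO, 38.9, 24.2 and 92.2 in the Tyr-NrasQ61K and 40.9, 38.6 and 45.4 in the WT libraries, and Sdhc, a membrane anchor, at 13.2, 12.02 and 14.3 FPKM in the MHCII-KO, 12.7, 13.3 and 42.3 in the Tyr-NrasQ61K and 21.00, 12.8 and 20.7 in the WT libraries. In both, Tyr-NrasQ61K replicate 3 was 2.02 to 2.03 times the next highest library, and the other 8 libraries overlapped. Sdhb, the iron-sulfur subunit, was at 24.5, 19.4 and 26.8 FPKM in the MHCII-KO, 21.97, 21.01 and 26.5 in the Tyr-NrasQ61K and 33.3, 22.1 and 38.1 in the WT libraries, and Sdhd, the partner anchor, at 21.4, 14.6 and 20.3 FPKM in the MHCII-KO, 20.3, 11.9 and 22.8 in the Tyr-NrasQ61K and 36.03, 21.4 and 35.1 in the WT libraries. In that library Sdhb and Sdhd thus lay within the range of WT while their partners lay far above it. The ratio of Sdha to Sdhb was 3.48 there and 1.15 to 1.77 in the others. Sdhd had a log2 fold change of -0.67 (SE 0.320 and adjusted p = 0.337, limma) in MHCII-KO and -0.73 (SE 0.320 and adjusted p = 0.328, limma) in Tyr-NrasQ61K. Without Tyr-NrasQ61K replicate 3 the median of the 4 genes was -0.45 in Tyr-NrasQ61K against WT, and without replicate 2 it was 0.03. This median also turned above 0 with median-ratio scaling (0.05) and with equal protein-coding sums (0.13), whereas that of MHCII-KO stayed below 0 under every setting.

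Among the 8 genes of complex III, Uqcrh, the hinge protein between cytochrome c1 and cytochrome c, was the most abundant. It was at 86.6, 72.1 and 91.6 FPKM in the MHCII-KO, 79.6, 68.9 and 117 in the Tyr-NrasQ61K and 124, 96.7 and 159.5 in the WT libraries. All MHCII-KO libraries lay below WT, and Tyr-NrasQ61K replicate 3 lay within the WT range. Uqcr11, a small accessory subunit, was at 30.3, 20.9 and 29.1 FPKM in the MHCII-KO, 36.3, 27.4 and 38.3 in the Tyr-NrasQ61K and 47.5, 29.3 and 52.2 in the WT libraries, and Uqcrc2, a core subunit, at 31.2, 15.6 and 29.2 FPKM in the MHCII-KO, 29.1, 16.8 and 57.6 in the Tyr-NrasQ61K and 42.8, 29.8 and 53.3 in the WT libraries, both with overlap. Uqcrc2 was highest in Tyr-NrasQ61K replicate 3. Uqcrb, a subunit near the quinone site, was at 25.2, 12.5 and 18.2 FPKM in the MHCII-KO, 28.1, 11.5 and 28.3 in the Tyr-NrasQ61K and 45.04, 33.8 and 52.5 in the WT libraries, with all 6 libraries of the NRAS groups below WT. Its log2 fold change was -1.22 (SE 0.403 and adjusted p = 0.329, limma) in MHCII-KO and -1.004 (SE 0.403 and adjusted p = 0.318, limma) in Tyr-NrasQ61K. With the correction for GC content and length, Uqcrb was called lower in both NRAS groups together against WT, where 501 of all 11902 genes were called. Uqcr10, a small accessory subunit, was at 23.7, 17.1 and 23.1 FPKM in the MHCII-KO, 23.6, 9.54 and 38.6 in the Tyr-NrasQ61K and 51.96, 28.9 and 54.9 in the WT libraries. Tyr-NrasQ61K replicate 3 lay within the WT range and the other 5 libraries of the NRAS groups below it, with log2 fold changes of -1.01 in MHCII-KO and -1.04 in Tyr-NrasQ61K (adjusted p = 0.335 and 0.335 from limma).

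Uqcrq, an accessory subunit, differed from the rest, at low values. It was at 8.46, 5.09 and 6.63 FPKM in the MHCII-KO, 5.17, 7.001 and 11.1 in the Tyr-NrasQ61K and 2.09, 6.71 and 4.504 in the WT libraries, where the lowest library was WT replicate 1 and the groups overlapped.

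Complex IV had the lowest median of the 5 complexes, at -1.05 in MHCII-KO and -0.93 in Tyr-NrasQ61K against WT over 13 genes tested. Its median was the lowest under every setting with the filter on low values, between -1.31 and -0.66 in MHCII-KO and between -1.14 and -0.55 in Tyr-NrasQ61K. Without the filter the restricted isoforms enter, and complex IV was at -0.57 in MHCII-KO, above complexes V (-0.73), I (-0.65) and III (-0.61) and the assembly factors (-0.58), and at -0.64 in Tyr-NrasQ61K, above complex V (-0.65). In MHCII-KO 9 of the 13 genes, and in Tyr-NrasQ61K 8, had all libraries below WT, as did 23.4% and 10.5% of all genes.

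The 3 most abundant genes of the complex all separated from WT. Cox6b1, on the side of the intermembrane space (ENSMUSG00000036751, chromosome 7 from 30616861 to 30626151), was at 53.3, 40.7 and 40.7 FPKM in the MHCII-KO, 52.3, 34.04 and 57.9 in the Tyr-NrasQ61K and 104, 59.5 and 119.7 in the WT libraries. Even WT replicate 2, the lowest of its group, lay above all 6 libraries of the NRAS groups. The log2 fold change was -1.004 (SE 0.341 and adjusted p = 0.329, limma) in MHCII-KO and -0.93 (SE 0.341 and adjusted p = 0.314, limma) in Tyr-NrasQ61K. Cox7a2l, a factor that joins complexes III and IV into supercomplexes, was at 67.4, 45.2 and 60.3 FPKM in the MHCII-KO, 62.6, 45.01 and 66.2 in the Tyr-NrasQ61K and 118, 68.97 and 135 in the WT libraries. Cox8a, the common isoform of subunit VIII, was at 54.5, 28.9 and 43.5 FPKM in the MHCII-KO, 51.8, 33.6 and 54.8 in the Tyr-NrasQ61K and 119.6, 59.97 and 88.3 in the WT libraries. Cox7a2l had log2 fold changes of -0.85 in MHCII-KO and -0.84 in Tyr-NrasQ61K (adjusted p = 0.329 and 0.318 from limma). For Cox8a they were -1.05 and -0.90 (adjusted p = 0.329 and 0.321 from limma).

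**Figure D4:**
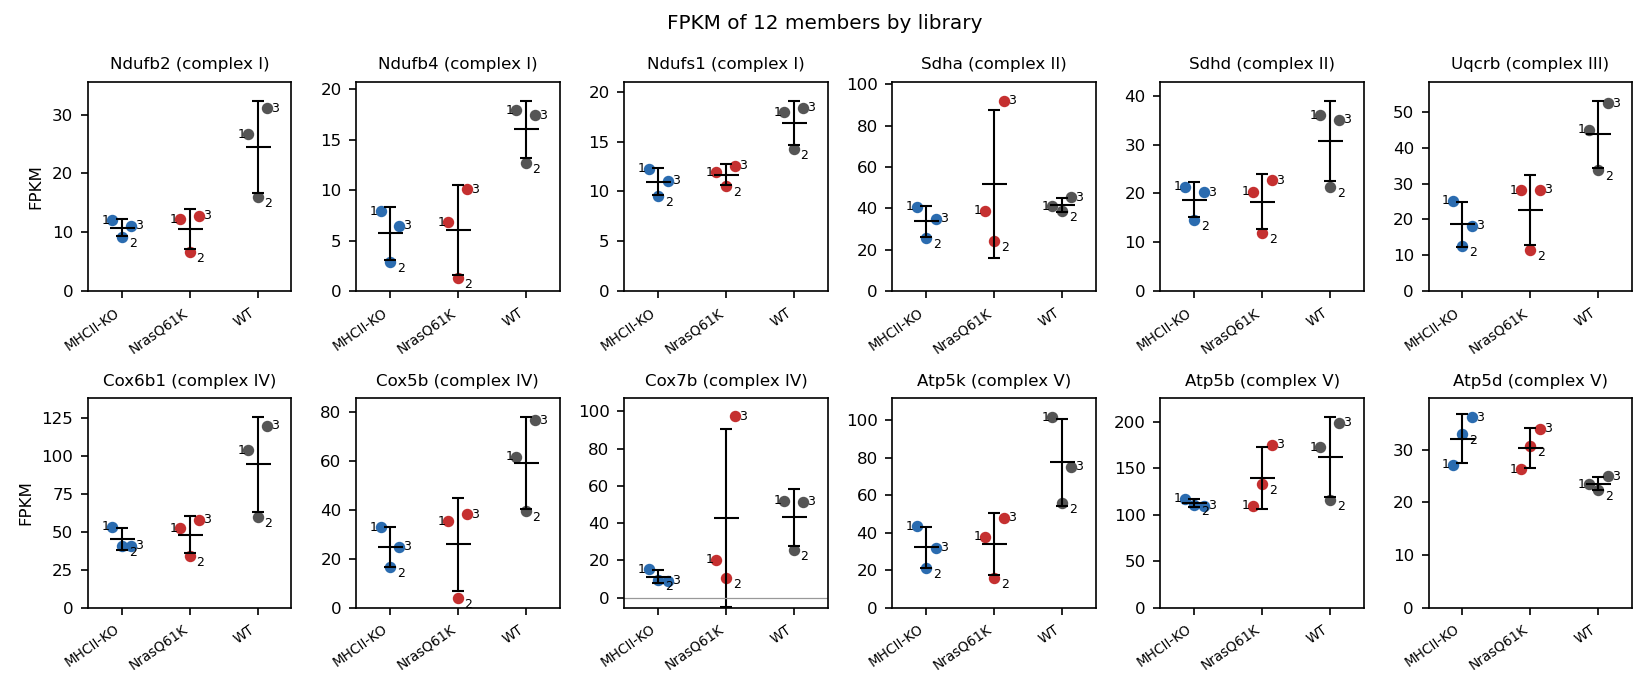
FPKM of 12 members in MHCII-KO (blue), Tyr-NrasQ61K (red) and WT (grey) libraries; points are libraries with their replicate number, and bars show the group mean ± SD (n = 3), which for Cox7b in Tyr-NrasQ61K reaches below 0. Ndufb2, Ndufb4, Ndufs1, Uqcrb, Cox6b1, Cox5b and Atp5k lie below WT in all 6 libraries of the NRAS groups and Atp5d above it, whereas Sdha and Cox7b peak in Tyr-NrasQ61K replicate 3 at 92.2 and 97.4 FPKM.

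Cox5b, which binds zinc on the matrix side, had the lowest fold change of all members in Tyr-NrasQ61K against WT, through 1 library. It was at 32.96, 16.5 and 24.99 FPKM in the MHCII-KO, 35.3, 3.94 and 38.3 in the Tyr-NrasQ61K and 61.8, 39.5 and 76.8 in the WT libraries. Tyr-NrasQ61K replicate 2 lay far below its fellow libraries, and the other 5 libraries of the NRAS groups also lay below WT. Its log2 fold change was -1.23 (SE 0.750 and adjusted p = 0.392, limma) in MHCII-KO and -1.60 (SE 0.750 and adjusted p = 0.336, limma) in Tyr-NrasQ61K. Cox7b, on the X chromosome, varied widely. It was at 15.1, 9.24 and 9.12 FPKM in the MHCII-KO, 20.4, 10.6 and 97.4 in the Tyr-NrasQ61K and 52.1, 25.6 and 51.5 in the WT libraries. The MHCII-KO libraries lay below WT without overlap, with a log2 fold change of -1.82 (SE 0.712 and adjusted p = 0.329, limma). Tyr-NrasQ61K held 2 libraries below WT and 1, replicate 3, above it, where Cox7b was 1.68 times Cox6b1, against 0.224 to 0.503 times in the other 8 libraries. Cox6a1, the common isoform of subunit VIa, differed little, at 41.9, 53.3 and 56.2 FPKM in the MHCII-KO, 46.01, 57.4 and 58.5 in the Tyr-NrasQ61K and 66.03, 47.6 and 67.3 in the WT libraries. Cox7a2, the common partner of Cox7a1, was at 17.6, 6.42 and 15.01 FPKM in the MHCII-KO, 24.8, 4.19 and 20.7 in the Tyr-NrasQ61K and 40.5, 25.7 and 50.7 in the WT libraries. Ndufa4, which was named after complex I but is a subunit of complex IV, was at 54.8, 22.1 and 38.4 FPKM in the MHCII-KO, 53.8, 11.6 and 62.7 in the Tyr-NrasQ61K and 88.8, 57.2 and 103 in the WT libraries. Cox7a2 lay below WT in all 6 libraries of the NRAS groups, and Ndufa4 in all but Tyr-NrasQ61K replicate 3.

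The tissue-restricted isoforms of complex IV were low in every library. Cox6a2 and Cox7a1, the heart and skeletal muscle isoforms, reached at most 1.73 and 2.21 FPKM. Cox8c was listed at 0 in all 9 libraries, Cox7b2 was above 0 in 1 and Cox6b2 reached at most 1.13 FPKM; these 3 are known from testis. Ndufa4l2, an isoform induced by hypoxia, was at 0.604 to 0.706 FPKM in the MHCII-KO, 0.175 to 0.676 in the Tyr-NrasQ61K and 0.416 to 0.502 in the WT libraries, so all MHCII-KO values lay above WT, at levels too low to be tested. Cox8b, made in muscle and brown fat, was at 5.16, 0.537 and 2.59 FPKM in the MHCII-KO, 3.62, 0 and 2.95 in the Tyr-NrasQ61K and 0.502, 3.500 and 1.598 in the WT libraries and followed no group. Cox4i2, the lung isoform of subunit IV, was at 1.67, 1.89 and 1.09 FPKM in the MHCII-KO, 0.676, 1.22 and 0.904 in the Tyr-NrasQ61K and 2.97, 1.76 and 3.51 in the WT libraries. Its Tyr-NrasQ61K libraries lay below WT, and its MHCII-KO libraries overlapped with WT. The log2 fold change of Cox4i2 was -0.94 (SE 0.233 and adjusted p = 0.205, limma) in Tyr-NrasQ61K and -0.54 (SE 0.233 and adjusted p = 0.329, limma) in MHCII-KO, on a scale where a pseudocount of 1 makes it smaller than the ratio of FPKM.

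In complex V, the 5 subunits of the soluble F1 head, which holds the catalytic sites, had medians of -0.56 in MHCII-KO and -0.42 in Tyr-NrasQ61K against WT. The 4 entries for small membrane subunits, among them those that join ATP synthases into dimers, had -1.08 and -1.09. These entries include Atp5l2, which is annotated as a pseudogene. Atp5b, the catalytic beta subunit and the most abundant member of all, was at 117, 111 and 109 FPKM in the MHCII-KO, 109, 133 and 175 in the Tyr-NrasQ61K and 173, 115 and 199 in the WT libraries. The MHCII-KO libraries lay close together, and the groups overlapped. Atp5e and Atp5a1, the epsilon and alpha subunits, were at 84.9 to 91.6 and 63.0 to 83.0 FPKM in the MHCII-KO, 78.8 to 136.0 and 64.2 to 108.7 in the Tyr-NrasQ61K, and 97.5 to 164 and 76.9 to 133 in the WT libraries.

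Atp5k, subunit e of the membrane part (ENSMUSG00000050856, chromosome 5 from 108433244 to 108434448), had the smallest p of complex V in Tyr-NrasQ61K against WT. It was at 43.3, 21.1 and 31.9 FPKM in the MHCII-KO, 37.9, 15.6 and 47.95 in the Tyr-NrasQ61K and 102, 55.6 and 75.2 in the WT libraries. All 6 libraries of the NRAS groups lay below WT, and the log2 fold change was -1.26 (SE 0.460 and adjusted p = 0.329, limma) in MHCII-KO and -1.27 (SE 0.460 and adjusted p = 0.310, limma) in Tyr-NrasQ61K. Atp5l, subunit g, was at 37.9, 18.7 and 30.4 FPKM in the MHCII-KO, 39.99, 12.1 and 31.9 in the Tyr-NrasQ61K and 65.4, 40.4 and 77.4 in the WT libraries, and Atp5f1, subunit b of the stalk, at 29.1, 19.7 and 26.95 FPKM in the MHCII-KO, 27.7, 14.3 and 32.9 in the Tyr-NrasQ61K and 44.2, 33.9 and 53.7 in the WT libraries. Both lay below WT in all 6 libraries. Atp5l had log2 fold changes of -1.05 and -1.20 in MHCII-KO and Tyr-NrasQ61K (adjusted p = 0.330 and 0.318 from limma). For Atp5f1 they were -0.77 and -0.84 (adjusted p = 0.329 and 0.322 from limma). Atp5l2 is annotated as a processed pseudogene, so reads may be shared with Atp5l, and it was at 4.48 to 13.2 FPKM in the MHCII-KO, 4.88 to 15.6 in the Tyr-NrasQ61K and 12.01 to 22.8 in the WT libraries.

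Atp5d, the delta subunit of F1, was the exception. It was at 27.1, 33.02 and 36.2 FPKM in the MHCII-KO, 26.3, 30.6 and 33.96 in the Tyr-NrasQ61K and 23.4, 22.3 and 24.9 in the WT libraries. All 6 libraries of the NRAS groups lay above all 3 WT libraries, with log2 fold changes of 0.42 (SE 0.210 and adjusted p = 0.340, limma) in MHCII-KO and 0.34 (SE 0.210 and adjusted p = 0.400, limma) in Tyr-NrasQ61K. The 3 genes of the c-ring encode the same mature protein with different import signals. Atp5g1, Atp5g2 and Atp5g3 summed to 102.5, 71.0 and 99.8 FPKM in the MHCII-KO, 99.3, 80.7 and 109.9 in the Tyr-NrasQ61K and 169, 103.4 and 174 in the WT libraries. Atp5g1 made up 10.1% to 12.8% of this sum in MHCII-KO, 13.9% to 16.9% in Tyr-NrasQ61K and 10.4% to 11.9% in WT, so its share was highest in all 3 Tyr-NrasQ61K libraries. No test of these shares was run.

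The 6 assembly factors of complexes I and II within the symbols had medians of -0.61 and -0.59 in MHCII-KO and Tyr-NrasQ61K against WT, all at low FPKM. Sdhaf1, which helps to insert iron-sulfur clusters into Sdhb, had the smallest p of all members in Tyr-NrasQ61K against WT. It was at 1.98, 0.901 and 1.17 FPKM in the MHCII-KO, 1.44, 0.522 and 0.726 in the Tyr-NrasQ61K and 3.42, 2.16 and 3.39 in the WT libraries, all 6 below WT in the NRAS groups, with log2 fold changes of -0.77 (SE 0.259 and adjusted p = 0.329, limma) in MHCII-KO and -1.09 (SE 0.259 and adjusted p = 0.190, limma) in Tyr-NrasQ61K. Ndufaf2, an assembly factor of complex I, was at 1.67, 2.05 and 1.603 FPKM in the MHCII-KO, 1.33, 0.264 and 1.66 in the Tyr-NrasQ61K and 4.09, 2.28 and 5.03 in the WT libraries. The NRAS groups did not reach the WT range, and the log2 fold change was -0.75 (SE 0.323 and adjusted p = 0.329, limma) in MHCII-KO and -1.23 (SE 0.323 and adjusted p = 0.217, limma) in Tyr-NrasQ61K.

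The promoters of these genes are known for sites of the nuclear respiratory factor NRF1 and of GABP, an ETS factor also called NRF2. RefSeq promoters of GRCm38.p6, from 250 bases before to 50 after the start, matched 73 of the 91 members by symbol. The NRF1 core letters CGCATGCG, which read the same on both strands, were found in 10 of 73 members (13.7%) and in 2.07% of all 27025 genes of that table. The ETS letters CCGGAAG, on either strand, were found in 19 members (26.0%) and in 9.93% of all genes. The YY1 letters AAGATGGC were in 12.3% of members and 3.19% of all genes, and the ERR letters CAAGGTCA in 5.48% and 1.76%. The general boxes CCAAT and GGGCGG were each in 45.2% of members, and in 41.1% and 38.2% of all genes, and TATAAA was in 9.59% and 15.7%. The 7 sets of letters were read on both strands, none of them lies within another, and a match is a description of the letters only.

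Members with the ETS letters had a median log2 fold change of -0.62 in MHCII-KO and -0.52 in Tyr-NrasQ61K against WT, and those without had -0.75 and -0.60. For the NRF1 letters the medians were -0.62 and -0.42 with and -0.71 and -0.56 without. For YY1 they were -0.84 and -0.53 with and -0.64 and -0.55 without, and for ERR, in 4 members, -0.71 and -0.68 with and -0.66 and -0.54 without. Medians with the letters were thus less negative for ETS and NRF1 in both groups and more negative for ERR, while YY1 differed by group. Of the 10 members with the NRF1 letters, 3 are shown because their values ran from low to nearly level against WT: Atp5k (log2 fold change -1.27 in Tyr-NrasQ61K), Atp5g2 and Cox6a1. The 250 bases before the start that RefSeq gives, which can differ from that of GENCODE, are shown in GRCm38.p6, on the minus strand on which all 3 genes lie, at chr5:108434400-108434649, chr15:102671048-102671297 and chr5:115348959-115349208. Capitals mark the NRF1 letters and, in Cox6a1, the ETS letters on the opposite strand (CTTCCGG); the ETS letters of Atp5k lie after its start.
Atp5k: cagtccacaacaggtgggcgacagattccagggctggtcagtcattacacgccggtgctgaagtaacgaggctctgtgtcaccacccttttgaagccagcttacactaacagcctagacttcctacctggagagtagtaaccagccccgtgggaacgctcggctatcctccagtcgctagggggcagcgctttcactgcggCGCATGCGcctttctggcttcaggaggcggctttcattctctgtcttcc
Atp5g2: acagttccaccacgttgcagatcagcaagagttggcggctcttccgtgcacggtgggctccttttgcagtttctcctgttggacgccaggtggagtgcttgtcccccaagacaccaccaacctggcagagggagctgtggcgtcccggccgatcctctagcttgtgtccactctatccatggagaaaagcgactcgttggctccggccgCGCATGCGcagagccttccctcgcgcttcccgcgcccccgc
Cox6a1: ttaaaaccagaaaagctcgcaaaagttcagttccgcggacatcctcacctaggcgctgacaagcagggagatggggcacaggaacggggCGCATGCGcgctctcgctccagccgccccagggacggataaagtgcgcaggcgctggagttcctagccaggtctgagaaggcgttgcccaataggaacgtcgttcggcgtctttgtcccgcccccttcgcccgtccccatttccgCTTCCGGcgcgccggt
Each of these stretches holds the 8 NRF1 letters once. Atp5k lay below WT in all 6 libraries of the NRAS groups and Atp5g2 in the 3 of MHCII-KO, where the highest, at 43.5 FPKM, was next to WT replicate 2 at 43.6, while Cox6a1 overlapped with WT in both groups.

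Other genes of mitochondrial energy metabolism were read from lists, and 0 of their genes were called against WT in either NRAS group by limma. Unadjusted counts are of genes lower at p of at most 0.05. The 13 subunits encoded in the mitochondrial genome were listed at 0 in every library, so the respiratory chain could be followed in its nuclear part only. Cytochrome c (Cycs) was at 6.84, 3.84 and 4.38 FPKM in the MHCII-KO, 7.40, 2.62 and 6.96 in the Tyr-NrasQ61K and 12.8, 8.13 and 12.6 in the WT libraries, without overlap. Its log2 fold change was -1.02 in MHCII-KO (adjusted p = 0.329 from limma) and -0.94 in Tyr-NrasQ61K (adjusted p = 0.316 from limma). Hccs, which attaches heme to cytochrome c, was at 3.51, 2.64 and 2.67 FPKM in the MHCII-KO, 2.99, 1.84 and 3.30 in the Tyr-NrasQ61K and 7.32, 4.09 and 5.77 in the WT libraries, and also lay below WT throughout.

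Of 17 genes of the tricarboxylic acid cycle and pyruvate dehydrogenase, 3 were lower in MHCII-KO and 5 in Tyr-NrasQ61K at an unadjusted p of at most 0.05, with medians of -0.57 and -0.41. Pdha1, the E1 alpha subunit of pyruvate dehydrogenase, was at 17.7, 10.6 and 12.4 FPKM in the MHCII-KO, 16.1, 7.95 and 20.6 in the Tyr-NrasQ61K and 25.4, 24.0 and 28.8 in the WT libraries. Idh3a, of isocitrate dehydrogenase, lay at 3.81 to 8.29, 2.24 to 8.20 and 8.80 to 13.2 FPKM in MHCII-KO, Tyr-NrasQ61K and WT. Mitochondrial import and the carriers had similar medians, at -0.56 and -0.55 in MHCII-KO and -0.42 and -0.45 in Tyr-NrasQ61K. Slc25a5, a carrier that exchanges ADP for ATP, was at 57.5, 30.7 and 50.04 FPKM in the MHCII-KO, 55.5, 25.2 and 47.2 in the Tyr-NrasQ61K and 95.8, 55.8 and 103.3 in the WT libraries, where WT replicate 2 overlapped with MHCII-KO. Of 76 mitochondrial ribosomal protein genes, 18 were lower in MHCII-KO and 6 in Tyr-NrasQ61K, with medians of -0.52 and -0.31, where 11.5% and 8.43% of all genes were lower, so the count in Tyr-NrasQ61K was near that of all genes.

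By contrast, assembly factors outside the symbols had medians of -0.12 in MHCII-KO and -0.09 in Tyr-NrasQ61K over 22 genes, close to all genes (-0.22 and -0.12). Of these, Sco1, a copper chaperone of complex IV, lay below WT in all libraries, at 2.73 to 3.67 FPKM in MHCII-KO and 2.87 to 3.62 in Tyr-NrasQ61K against 4.83 to 5.44 in WT. Of 13 genes of transcriptional regulators of mitochondria, 0 were lower at an unadjusted p of at most 0.05 in either group. In Tyr-NrasQ61K 3 were higher, where 6.79% of all genes were. Their median distance from the WT mean was -0.09, 0.003 and 0.56 in the Tyr-NrasQ61K libraries, so it rested on replicate 3. Esrra, which encodes the receptor ERR alpha, was at 10.4, 17.9 and 11.4 FPKM in the MHCII-KO, 9.33, 22.8 and 19.5 in the Tyr-NrasQ61K and 8.17, 8.01 and 9.39 in the WT libraries (log2 fold change 0.85, adjusted p = 0.318 from limma, in Tyr-NrasQ61K). Pprc1, a coactivator of the PGC-1 family, was at 9.26 to 10.3, 8.60 to 22.8 and 6.40 to 8.83 FPKM in MHCII-KO, Tyr-NrasQ61K and WT.

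Several measures were read beside these differences, and their part in them was not tested. In bulk tissue, fewer cells of a type and less RNA per cell cannot be told apart. The 10 white adipocyte markers, all tested, summed to 66.5 to 182 FPKM in the MHCII-KO, 46.6 to 198 in the Tyr-NrasQ61K and 297 to 558 in the WT libraries, and 9 and 10 of the 10 were lower at an unadjusted p of at most 0.05 in MHCII-KO and Tyr-NrasQ61K against WT. The 10 markers of proliferating cells summed to 53.0 to 65.3, 69.2 to 77.7 and 65.1 to 138 FPKM in the same groups, and 6 and 2 of the 10 were lower at that level. No adipocyte or proliferation marker was at 0 in all libraries. The 7 brown adipocyte markers summed to 2.76 to 3.90, 3.404 to 4.68 and 1.09 to 2.22 FPKM, and 4 of the 7 did not exceed 1 FPKM in any library. The 10 T cell markers summed to 160 to 274, 173 to 402 and 212 to 339 FPKM, with median log2 fold changes of -0.42 in MHCII-KO and -0.67 in Tyr-NrasQ61K against WT. At an unadjusted p of at most 0.05, 2 and 3 of them were lower, and 0 and 1 higher. The 9 B cell markers summed to 1044 to 2565, 665 to 2134 and 1317 to 2678 FPKM, with medians of -0.22 and -0.15, and 1 and 0 were lower at that level. The 9 macrophage markers had medians of -0.31 and -0.46, and 2 were lower in each group. Of all genes tested, 11.5% and 8.43% were lower and 3.57% and 6.79% higher at that level in the same comparisons. Counts of 1 or 2 among 9 or 10 markers are too small to set apart from these shares.

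Differences from WT went with the GC content of transcripts in every library of the NRAS groups, most in replicate 2 of each. Among members under 48% GC the median distance from the WT mean was -1.40 in MHCII-KO replicate 2 and -1.64 in Tyr-NrasQ61K replicate 2, and among those of 54% and above it was -0.69 and -0.73. Protein-coding genes had the same order in these libraries, at -0.68 and -0.79 under 48% and at -0.03 and 0.10 from 54%. The order was the same in the other libraries of the NRAS groups. Members under 48% and from 54% were at -0.58 and -0.43 in MHCII-KO replicate 1 and at -0.83 and -0.36 in replicate 3. In Tyr-NrasQ61K they were at -0.59 and -0.46 in replicate 1 and at -0.36 and -0.03 in replicate 3. In WT the bins lay close together, and in replicate 3, where they were farthest apart, the members had 0.30 under 48% and 0.24 from 54%. The members were shorter than other genes, with a median transcript of 908 bases against 3016. Once corrected for GC content and length among protein-coding genes, the members' median was -0.23 in MHCII-KO and -0.18 in Tyr-NrasQ61K against WT, beside -0.04 and -0.04 for all genes so corrected. That of complex IV was -0.66 and -0.55, and that of complex II -0.10 and 0.06.

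**Figure D5:**
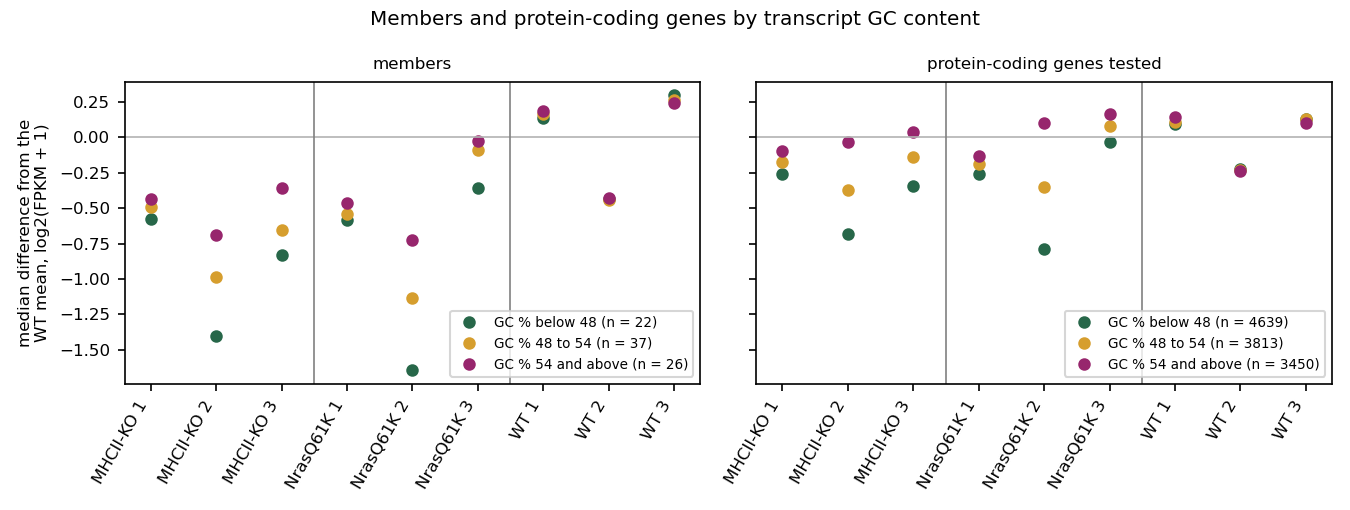
Median difference of log2(FPKM + 1) from the WT mean in each library, for members (left) and all protein-coding genes tested (right) in 3 bins of transcript GC content (green under 48%, yellow 48% to 54%, purple 54% and above). The bins spread farthest apart in replicate 2 of MHCII-KO and of Tyr-NrasQ61K, from -1.40 to -0.69 and from -1.64 to -0.73 in members. They keep the same order in the other libraries of the NRAS groups, from -0.83 to -0.36 in members of MHCII-KO replicate 3, and lie close together in WT. Members lie below the protein-coding genes of the same bin in all 6 libraries of the NRAS groups and also in WT replicate 2. In WT replicates 1 and 3 they lie above them.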

How the data were processed

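RNA-seq libraries of 9 lymph node samples were compared, 3 in each of 3 groups taken from the sample labels. Per the study's methods, reads were aligned to mm10 with TopHat and summarised with Cufflinks and Cuffdiff, with versions not given in the sources used here. The authors deposited 1 matrix of FPKM values per gene and library, without counts, so depth is known only in relative terms, from the steps of low values. The authors' Cuffdiff comparison tables (fold changes and p-values) were not used. From the matrix, 18 entries with several values for a gene were left out, as was a repeated header.

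Values were tested as log2(FPKM + 1) with limma 3.58.1 (R 4.3.3) with a mean-variance trend, in 1 fit of all 9 libraries, for genes at FPKM of 1 or more in 3 or more libraries. P-values were adjusted by the Benjamini-Hochberg method over all genes tested at 0.05. The script was tested on simulated data with 200 planted changes. In Tyr-NrasQ61K against WT it called 11% of those of 1 and 51% of those of 2 on the log2 scale. A count of 0 members called thus does not show that they were unchanged. Gene positions, types, lengths and GC content came from GENCODE M21, and promoters from RefSeq. Alternatives were a pseudocount of 0.1, no filter, a mean FPKM of at least 5, 3 scalings, library weights, a replicate block, the compared groups alone, protein-coding genes with and without a correction for GC content and length, and leaving out libraries.

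The members and the lists were chosen with earlier results of these data known. By rule, the text names in each complex the 3 members with the highest mean FPKM and the 3 with the smallest p in Tyr-NrasQ61K against WT, any member called, the tissue-restricted isoforms with their common partners, and up to 3 genes of a list by the smallest p. Cox5b, Atp5d, Ndufa5, Ndufv1, Ndufab1, Sdhaf1, Ndufaf2, Atp5l2 and the 3 c-ring genes were chosen after their values were seen.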

Additional observations from a re-analysis of the deposited data

How the results depend on the processing

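Counts of members called depended on how the spread of the libraries was handled. With library weights limma called 70 of 85 members in MHCII-KO (68 lower and 2 higher), 60 in Tyr-NrasQ61K (all lower) and 72 in both NRAS groups (71 lower and 1 higher) against WT, and 0 between the NRAS groups. The weights ran from 0.197 for Tyr-NrasQ61K replicate 2 to 5.22 for MHCII-KO replicate 3. Of all 16587 genes, 7407, 5076 and 7542 were called in MHCII-KO, Tyr-NrasQ61K and both groups against WT. Among protein-coding genes only, 2 of 84 members (Sdhaf1 and Ndufb2) were called in both NRAS groups together against WT, where 273 of all 11902 genes were. With the correction for GC content and length, 1 of 84 was called in Tyr-NrasQ61K and 2 in both groups, where 250 and 501 of all 11902 genes were. The members' median then moved to -0.23 in MHCII-KO and -0.20 in both groups against WT. The cause of these changes was not tested.

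Same-numbered libraries were not treated as pairs, since of 9 correlations of their deviations, from -0.0384 to 0.332, 3 were above 0.1. Correlations of libraries with different numbers ran from -0.27 to 0.162. Whether same-numbered libraries share an effect cannot be told from these correlations, and the labels do not state a pairing. With a replicate block, 10 members were called lower in MHCII-KO, 10 in Tyr-NrasQ61K and 36 in both groups against WT, and 0 in MHCII-KO against Tyr-NrasQ61K. Of all 16587 genes, 777, 894 and 2675 were called in the 3 comparisons with WT.

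Leaving out each library in turn, the members' median ranged from -0.89 to -0.51 in MHCII-KO against WT, from -0.79 to -0.33 in Tyr-NrasQ61K against WT, from -0.86 to -0.49 in both groups against WT and from -0.35 to 0.10 in MHCII-KO against Tyr-NrasQ61K. The count of members called stayed at 0 in each. For single members named with a fold change, 765 of 813 values under an alternative kept direction and side of the threshold, and 48 passed it where the reported value did not. The spread between the library medians, 0.367 on the log2 scale, limits what 3 libraries a group can show, and counting error could not be given because FPKM hold no counts.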

Other observations

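The cytosolic ribosomal protein genes, another large group of abundant short transcripts, had medians of -0.88 in MHCII-KO and -0.88 in Tyr-NrasQ61K against WT over 81 genes tested, beside -0.64 and -0.54 for the respiratory chain members. At an unadjusted p of at most 0.05, 23 and 27 of them were lower and 0 higher, and limma called 0. Rps23, a protein of the small subunit, was at 401, 193 and 309 FPKM in the MHCII-KO, 365, 195 and 327 in the Tyr-NrasQ61K and 775, 506 and 951 in the WT libraries, without overlap.

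As a set, glycolysis did not move like the respiratory chain. Its 20 genes tested had medians of -0.22 in MHCII-KO and -0.15 in Tyr-NrasQ61K against WT, close to all genes tested (-0.22 and -0.12). Hk3, a hexokinase of myeloid cells, was the 1 gene called. It was at 8.73, 15.3 and 11.1 FPKM in the MHCII-KO, 12.1, 17.4 and 11.96 in the Tyr-NrasQ61K and 3.61, 3.06 and 5.09 in the WT libraries. It rose in both NRAS groups together against WT (log2 fold change 1.47, adjusted p = 0.0442 from limma), with all 6 libraries above WT. At an unadjusted p of at most 0.05, 3 of the 20 were lower and 1 higher in that comparison (15.2% and 6.52% of all genes). Slc16a1 was at 1.87 to 3.32 FPKM in MHCII-KO and 2.33 to 2.85 in Tyr-NrasQ61K, below WT (3.46 to 6.235). Its log2 fold changes against WT were -0.71 and -0.72 (adjusted p = 0.329 and 0.277 from limma). Those of Ldhb were -0.48 and -0.57, with overlap.

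Leptin (Lep), perilipin 1 (Plin1) and perilipin 4 (Plin4), markers of white adipocytes, fell in both NRAS groups together against WT. For Lep the log2 fold change was -2.80 (adjusted p = 0.0282 from limma). Lep was at 0.393, 0.241 and 0.207 FPKM in the MHCII-KO, 0.506, 0.139 and 0.207 in the Tyr-NrasQ61K and 19.3, 4.62 and 5.13 in the WT libraries. Dio2, an enzyme that activates thyroid hormone and a marker of brown fat, rose in the same comparison, at 0.734, 1.72 and 1.07 FPKM in the MHCII-KO, 2.25, 1.41 and 1.59 in the Tyr-NrasQ61K and 0.171, 0.0240 and 0.0476 in the WT libraries.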
